A study of Homo sapiens with 8 samples.

Results

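The comparison described here asks what NaB did when it was added to curcumin (Cur) with piperine (Pip) in cells labelled Hep3B. NaB is sodium pentaborate pentahydrate, a boron salt, as the series title and the methods spell it out; it is not butyrate. The 2 libraries compared were chosen by their labels, out of 8 in the whole series: cells labelled Hep3B treated with NaB, Cur and Pip, and cells labelled Hep3B treated with Cur and Pip. Hep3B is an established human hepatocellular carcinoma line. According to the methods, cells were treated for 48 h, with Cur at 30 µM and Pip at 6 µM in both libraries and NaB at 1700 µM in the first alone. Cur and Pip were therefore shared by both, so the difference is that of NaB on top of them and not that against untreated cells. RNA came from triplicate isolations by the methods' account, but each condition has 1 library, so no difference has a replicate check and no p-value is given. Libraries of the same label treated with NaB alone and left untreated (control), and HepG2 libraries treated with NaB, Cur and Pip (2500 µM NaB) and with Cur and Pip, served only to set the values beside.

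Cur is a plant polyphenol and Pip an alkaloid of black pepper that is known to slow the breakdown of Cur. Cells meet toxic compounds with a few well-studied gene programmes. ATF4 and CHOP switch on amino acid synthesis and growth arrest genes when translation is restrained, NRF2 switches on detoxifying enzymes after oxidative stress, HSF1 switches on chaperones when proteins misfold, and AP-1, NF-kB and SMAD factors relay kinase, cytokine and TGF-beta signals. The genes of these programmes are described in turn.

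The hepatocyte label was checked first. Of 31 hepatocyte marker genes, 2 had an FPKM (fragments scaled by transcript length and library depth) of at least 1 with NaB, Cur and Pip and 3 with Cur and Pip, with summed levels of 80.3 and 147 FPKM. The defining markers were at or near 0: ALB, serum albumin, was listed at 0 in both libraries with 0% of its exon bases covered, and AFP, alpha-fetoprotein, was listed at 0 with NaB, Cur and Pip and stood at 0.61 FPKM with Cur and Pip. A listed 0 alone does not show that a gene was silent, since FTL and FTH1, the ferritin genes, were listed at 0 in both libraries with 61.0% to 90.2% of their exon bases covered. RB1, the retinoblastoma gene which Hep3B cells are known to lack as a working protein, stood at 8.89 FPKM with NaB, Cur and Pip and at 11.7 FPKM with Cur and Pip. That is a level of RNA and does not tell whether a working RB1 protein was made. The hepatocyte marker values go against the hepatocyte label as far as the markers reach, and the samples are called the libraries labelled Hep3B. The libraries rest on an estimated 35.7 M and 31.4 M fragments, and 12691 and 13029 genes were listed in them. Single-exon transcripts made up 28.4% of the assembled transcripts with NaB, Cur and Pip and 22.4% with Cur and Pip, against 19.1% with NaB and 14.7% in the control. Their part in the differences below was not tested. These are bulk samples, in which fewer cells of a type and less RNA per cell cannot be told apart.

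Adding NaB went with more genes lower than higher. A gene was called when log2((FPKM + 1) with NaB, Cur and Pip / (FPKM + 1) with Cur and Pip) was over 1.5 or under −1.5, a 2.83-fold difference, and this scale understates the change of low genes. Of 12751 genes that reached 1 FPKM in one or both libraries, 546 (4.28%) were called higher and 891 (6.99%) lower, with a median of −0.11. Most of these calls came from genes that the assembly listed in 1 library only: 1007 of the 1437 had no assigned transcript in one of them, 625 with NaB, Cur and Pip and 382 with Cur and Pip. Of these 1007, 371 had transcript depth on their exons in both libraries. Among the 11357 genes listed in both, 164 (1.44%) were higher and 266 (2.34%) lower, with a median of −0.09.

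Stricter criteria left a smaller group. Of the 8822 genes listed in both with an FPKM of at least 5 in one or both, 68 (0.771%) were higher and 106 (1.2%) lower when the Cufflinks intervals did not overlap and the log2 difference stayed past 1.5 after the depth was apportioned over the exons of the canonical transcript. The 12 highest and 12 lowest protein-coding genes by this rule held several whose exons were not fully covered by assembled transcripts. RPS29, a ribosomal protein gene, stood at 575 FPKM with NaB, Cur and Pip and 2.14 FPKM with Cur and Pip (log2 difference 7.52, or 3.003 on the apportioned scale), with 100% and 78.6% of its exon bases covered. SPCS1, a signal peptidase subunit, stood at 0.48 and 130.9 FPKM (−6.48, or −3.81 on the apportioned scale), with 48.1% and 51.2% of its exon bases covered. APTX, POTEE, RPL38, RUNDC1, TMSB4X and C19orf53 among the highest, and COX6C, HNRNPCL1, FAM120AOS, SNRPE, ZSWIM7, UNKL and TJP3 among the lowest, also had under 80% of exon bases covered in one or both libraries. Several of these have near-identical copies in the genome, so their values are uncertain. When 80% coverage was also asked for in both libraries, a limit chosen after the values were seen, 24 genes (0.471%) of 5099 were higher and 36 (0.706%) lower. The account below turns mainly on these 60 genes and on the gene lists, and since the criteria used this comparison itself, the values are a description. Among the covered genes at the extremes, CINP, a partner of CDK2 in replication, stood at 50.7 FPKM with NaB, Cur and Pip and 9.38 FPKM with Cur and Pip (log2 difference 2.32), and ENSA, an inhibitor of the phosphatase PP2A in mitosis, at 16.6 and 134 FPKM (−2.94).

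**Figure D1:**
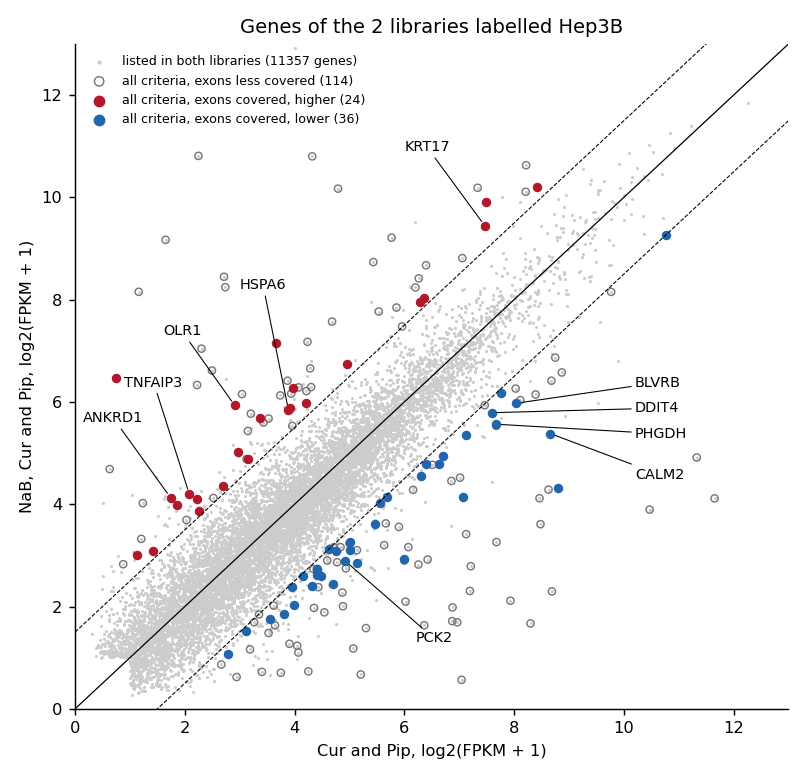
Level of each gene listed in both libraries, log2(FPKM + 1), with NaB, Cur and Pip (vertical axis) against Cur and Pip (horizontal axis). Each point is 1 gene, the dashed lines mark a log2 difference of 1.5 and −1.5, filled points are the 24 higher and 36 lower genes that met all criteria with their exons covered, and open circles are the 114 that met the criteria with less of their exons covered. The largest distances from the diagonal belong to open circles, such as RPS29 and SPCS1.

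Few AP-1 and immediate early genes listed in both libraries were called, all of them higher with NaB. Of 27 AP-1 and immediate early genes listed in both libraries, 3 were called higher and 0 lower, 22 had a positive difference, and the median was 0.47. Over all 11357 genes listed in both, 1.44% were called higher, 2.34% were called lower and 42.85% had a positive difference. These shares are the ones to set beside the counts of this and the following lists. DUSP5, a nuclear phosphatase that switches off ERK, stood at 58.3 FPKM with NaB, Cur and Pip and 14.2 FPKM with Cur and Pip (log2 difference 1.97, with the Cufflinks intervals allowing 1.81 to 2.13). ATF3, a stress-induced transcription factor, stood at 77.3 and 18.7 FPKM (1.99), with 95% and 30.1% of its exon bases covered. JUN, a core subunit of AP-1, stood at 38.9 FPKM with NaB, Cur and Pip and 12.6 FPKM with Cur and Pip (1.55, or 1.47 on the apportioned scale). The list also held genes that went the other way without being called, such as JUNB at 50.9 and 85.2 FPKM (−0.73) and EGR1 at 4.18 and 5.63 FPKM (−0.36). FOSL1, another AP-1 subunit, stood at 49.2 FPKM with NaB, Cur and Pip and was listed at 0 with Cur and Pip, although its exon bases were all covered there. Counting genes listed in 1 library only, 30 were compared, of which 4 were called higher and 2 lower. Over all 12751 genes compared, the shares were 4.28% and 6.99%.

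SMAD and TGF-beta genes showed the highest median among the lists with at least 10 genes listed in both, 0.50 over 19 genes. Of these, 2 were called higher and 0 lower, and 12 had a positive and 7 a negative difference. Counting genes listed in 1 library only, 22 were compared, of which 2 were called higher and 3 lower. ANKRD1, a nuclear cofactor that responds to YAP and TGF-beta signals, stood at 16.5 FPKM with NaB, Cur and Pip and 2.34 FPKM with Cur and Pip (log2 difference 2.39, interval 2.10 to 2.69). SMAD7, the inhibitory SMAD of the pathway, stood at 11.9 and 3.08 FPKM (1.66), with 45.4% of its exon bases covered with Cur and Pip. BMP2, a ligand of the family, stood at 34.8 and 16.3 FPKM (1.05), and PMEPA1, a feedback inhibitor, at 8.54 and 3.89 FPKM (0.96), both short of the threshold. COL1A1 and FN1, matrix genes that TGF-beta is known to raise, stood at 1.76 and 3.14 FPKM (−0.58) and at 2.12 and 3.26 FPKM (−0.45).

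Cytokine and NF-kB target genes were split. Of 20 listed in both, 3 were called higher and 1 lower, with a median of 0.20. TNFAIP3, the A20 enzyme that restrains NF-kB, stood at 17.3 FPKM with NaB, Cur and Pip and 3.23 FPKM with Cur and Pip (log2 difference 2.12, interval 1.92 to 2.32). CXCL8, the neutrophil chemokine IL-8, stood at 7.03 and 1.19 FPKM (1.87), and IL6, a cytokine of the acute phase response, at 13.5 and 3.80 FPKM (1.59). RELB, a subunit of the noncanonical NF-kB dimer, stood at 14.3 and 5.20 FPKM (1.301). CCL2, a monocyte chemokine, was called lower, at 5.63 FPKM with NaB, Cur and Pip and 20.2 FPKM with Cur and Pip (−1.68). LCN2, an iron-scavenging lipocalin, stood at 5.36 and 14.9 FPKM (−1.32).

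The promoters of 2 of these genes and of the heat shock gene HSPA6 are shown because each matches a pattern searched for a factor named above. They are RefSeq windows on GRCh38.p14, from 250 bases before to 50 bases after the start of the gene, given 5′ to 3′ on the strand of the gene. Capitals mark TGANTCA in ANKRD1 (chr10:90921038-90921337, minus strand) and CXCL8 (chr4:73740319-73740618, plus strand). In HSPA6 (chr1:161524290-161524589, plus strand) they mark GAANNTTC, a heat shock motif. Both strands were searched. TGANTCA is called the AP-1 motif below, but it leaves the central base free and is looser than the usual AP-1 motif. The match reads TGATTCA in ANKRD1 and TGACTCA in CXCL8, and the counts below take any central base.
ANKRD1: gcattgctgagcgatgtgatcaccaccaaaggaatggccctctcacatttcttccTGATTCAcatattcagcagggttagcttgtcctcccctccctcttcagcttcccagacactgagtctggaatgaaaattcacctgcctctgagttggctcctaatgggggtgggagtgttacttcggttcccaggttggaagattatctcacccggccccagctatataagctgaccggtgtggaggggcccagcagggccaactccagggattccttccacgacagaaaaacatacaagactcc
CXCL8: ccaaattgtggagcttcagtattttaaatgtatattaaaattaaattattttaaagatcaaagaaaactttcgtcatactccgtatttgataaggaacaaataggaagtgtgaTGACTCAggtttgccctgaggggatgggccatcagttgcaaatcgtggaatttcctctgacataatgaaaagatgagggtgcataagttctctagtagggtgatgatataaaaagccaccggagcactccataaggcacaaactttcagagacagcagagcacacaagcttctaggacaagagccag
HSPA6: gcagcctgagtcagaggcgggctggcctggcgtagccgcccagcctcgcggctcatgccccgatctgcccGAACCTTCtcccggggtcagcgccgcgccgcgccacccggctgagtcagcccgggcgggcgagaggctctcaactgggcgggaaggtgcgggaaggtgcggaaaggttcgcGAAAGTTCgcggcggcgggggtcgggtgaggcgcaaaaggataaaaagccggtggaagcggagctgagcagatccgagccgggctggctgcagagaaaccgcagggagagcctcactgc
The AP-1 match began 195 bases before the start in ANKRD1 and 137 bases before it in CXCL8, and the heat shock matches began 180 and 69 bases before it in HSPA6. Of the AP-1 and heat shock motifs, the matches left in lower case are 1 heat shock match in ANKRD1 and 2 AP-1 matches in HSPA6. The AP-1 motif was found in 7.71% and the heat shock motif in 6.77% of all 35116 promoters of the table. RefSeq windows were at hand for 14 of the 19 covered protein-coding genes called higher, 18 windows in all, of which 4 held the AP-1 motif and 2 the heat shock motif. They were at hand for 22 of the 31 called lower, 32 windows, of which 3 held the AP-1 motif and 3 the heat shock motif. The CRE letters TGACGTCA and the C/EBP-ATF letters TGATGNAA were in none of these 50 windows, and in 1.85% and 3.62% of all promoters. A match is a description of the sequence and not a binding site.

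Cytosolic chaperone genes were with 1 exception not called. Of 22 cytosolic heat shock genes listed in both, 17 had a positive difference and 1 was called, with a median of 0.14. HSPA6, a strictly inducible HSP70, was that gene, at 56.2 FPKM with NaB, Cur and Pip and 13.8 FPKM with Cur and Pip (log2 difference 1.95, interval 1.78 to 2.12). It stood at 0.55 FPKM with NaB and was listed at 0 in the control. HSPA6 has a near-identical pseudogene, HSPA7, which may share reads. ZFAND2A, which associates with the proteasome under arsenite stress and was chosen after its values were seen, stood at 105.6 and 29.8 FPKM (1.79), and at 41.9 FPKM with NaB and 15.1 FPKM in the control. HSPA8, the constitutive HSC70, stood at 1301 and 678 FPKM (0.94), DNAJB1, an HSP40 cochaperone, at 223 and 116 FPKM (0.94), and HSPH1, a nucleotide exchange factor, at 103 and 51.5 FPKM (0.99). HSP90AB1, the constitutive cytosolic HSP90, differed little, at 669 and 708 FPKM (−0.08).

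The chaperones of the endoplasmic reticulum showed a like picture. Of 26 genes of the unfolded protein response listed in both, 0 were called in either direction, 19 had a positive difference, and the median was 0.27. HSPA5, the BiP chaperone, stood at 1512 FPKM with NaB, Cur and Pip and 611 FPKM with Cur and Pip (1.31), against 284 FPKM with NaB and 223 FPKM in the control. HERPUD1, which serves the degradation of misfolded proteins, stood at 225 and 97.7 FPKM (1.20), and DNAJB9, a BiP cochaperone, at 38.9 and 20.9 FPKM (0.87). ERO1A, an oxidase of the same compartment, stood at 16.97 and 39.5 FPKM (−1.17), although on the apportioned scale its difference was 0.32.

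Some ATF4 and CHOP target genes were called lower, among them the serine synthesis gene PHGDH. Of 30 ATF4 and CHOP target genes listed in both, 1 was called higher and 5 lower, 20 had a negative difference, and the median was −0.43, beside −0.09 over all genes listed in both. PHGDH, which takes the first step of serine synthesis, stood at 46.3 FPKM with NaB, Cur and Pip and 203 FPKM with Cur and Pip (log2 difference −2.11, interval −2.24 to −1.97). PSAT1, the next enzyme of that path, stood at 59.7 and 162 FPKM (−1.42), and ASNS, asparagine synthetase, at 47.5 and 131.0 FPKM (−1.44), both just short of the threshold. DDIT4, an inhibitor of mTORC1 also known as REDD1, stood at 54.3 and 192 FPKM (−1.80). GDF15, a stress cytokine, stood at 94.5 and 466 FPKM (−2.29), and NUPR1, a stress-induced nuclear protein, at 64.6 and 276 FPKM (−2.08), with 7.0% and 33.0% of the canonical exon bases of NUPR1 covered. INHBE, an activin subunit, was the fifth, at 2.06 and 9.58 FPKM (−1.79, or −1.24 on the apportioned scale).

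The list did not move as one. ATF3, which it shares with the AP-1 list, was the gene called higher, and ATF5, a related factor, stood at 50.01 FPKM with NaB, Cur and Pip and 23.4 FPKM with Cur and Pip (1.06). PPP1R15A, also known as GADD34, which restarts translation, stood at 112 and 57.3 FPKM (0.95). DDIT3, which encodes CHOP, stood at 199.8 FPKM with NaB, Cur and Pip and was listed at 0 with Cur and Pip, where none of its exon bases was covered. ATF4 itself was listed at 0 with NaB, Cur and Pip and at 429 FPKM with Cur and Pip, although its exon bases were all covered by other transcripts in the first. PCK2, the mitochondrial PEP carboxykinase, which was chosen after its values were seen, stood at 6.42 and 29.3 FPKM (−2.03). Aminoacyl-tRNA synthetase genes, which charge tRNAs and many of which ATF4 is known to regulate, had the lowest median among the lists with at least 10 genes, −0.47 over 20 genes, with 16 negative and none called. AARS1, alanyl-tRNA synthetase, was at the low end of them with 61.4 and 158 FPKM (−1.35), and HARS1, histidyl-tRNA synthetase, at the high end with 46.5 and 39.0 FPKM (0.25).

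A minority of the NRF2 target genes, which encode detoxifying enzymes, were called, all of them lower. Of 27 NRF2 target genes listed in both, 0 were called higher and 4 lower, 23 had a negative difference, and the median was −0.45. AKR1C1 and AKR1C2, aldo-keto reductases of steroids and carbonyls, stood at 84.4 FPKM with NaB, Cur and Pip and 410 FPKM with Cur and Pip (−2.26), and at 69.8 and 335 FPKM (−2.25). These 2 genes are near-identical and may share reads, and their assembled transcripts covered 16.3% to 33.4% of the canonical exons. AKR1C3, a relative, stood at 144 and 325 FPKM (−1.17), and AKR1B10, which reduces retinal and other aldehydes, at 4.19 and 14.4 FPKM (−1.57). ABCC3, an efflux pump of conjugated compounds, stood at 5.02 and 21.2 FPKM (−1.88, interval −2.04 to −1.73). NQO1, a quinone reductase, and GCLM, a subunit of glutathione synthesis, differed less, at 128 and 201 FPKM (−0.64) and at 14.4 and 25.2 FPKM (−0.77). OSGIN1, a growth inhibitor induced by oxidative stress, was at the high end with 26.1 and 20.9 FPKM (0.31). HMOX1, heme oxygenase 1, stood at 41.9 FPKM with Cur and Pip and was listed at 0 with NaB, Cur and Pip, where 67.8% of its exon bases were covered by other transcripts. BLVRB, biliverdin reductase B, chosen after its values were seen, stood at 61.9 and 262 FPKM (−2.07), and GSTK1, a glutathione transferase, at 6.64 and 63.0 FPKM (−3.07).

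**Figure D2:**
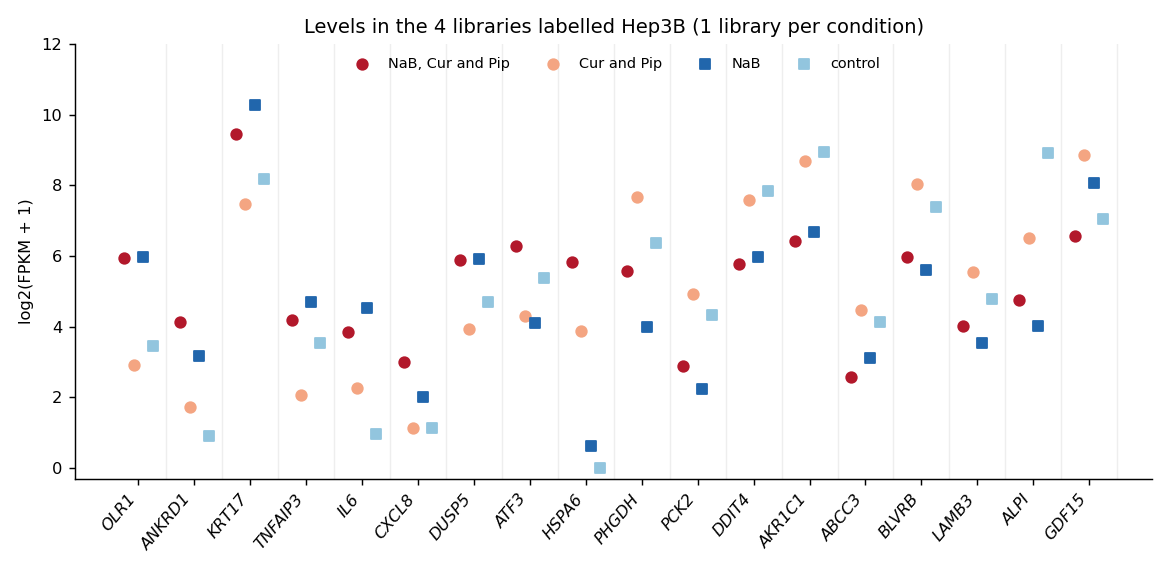
Level of 18 named genes, log2(FPKM + 1), in the 4 libraries labelled Hep3B, with 1 point per library and no error bar because each condition has 1 library. For PHGDH, PCK2, DDIT4, AKR1C1, ABCC3, BLVRB, LAMB3 and ALPI the library with NaB lies below the matching library without it in both pairs. For GDF15 and ATF3 the pairs point in opposite directions.

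Cell death genes were not called as a group. Of 34 members of the BCL2 family and effectors of apoptosis listed in both, 1 was called higher and 1 lower, with a median of 0.02. BAX, which permeabilizes mitochondria, was the lower one, at 29.6 FPKM with NaB, Cur and Pip and 104 FPKM with Cur and Pip (log2 difference −1.77). TNFRSF10D, a decoy receptor of TRAIL, was the higher one, at 19.4 and 5.46 FPKM (1.66). None of the BH3-only genes, whose proteins act upstream of BAX, was called, and their values ran both ways. BBC3, which encodes PUMA, stood at 19.3 and 8.03 FPKM (1.17, interval 0.90 to 1.44), PMAIP1, which encodes NOXA, at 54.2 and 27.4 FPKM (0.96, interval 0.79 to 1.13), and BIK at 8.36 and 2.95 FPKM (1.24). BID, a direct activator of BAX, stood at 14.2 and 21.9 FPKM (−0.59), and BAD at about the same level in both (log2 difference −0.0031). GADD45A, a growth arrest gene that the study followed by qRT-PCR together with BBC3 and PMAIP1, stood at 169 and 66.8 FPKM (1.32), or 0.57 on the apportioned scale. TNFRSF1A, the main TNF receptor, stood at 27.6 and 68.8 FPKM (−1.28). GAPDH, often taken as a reference gene, stood at 1402 and 1647 FPKM (−0.23).

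Genes of growth and of the cell cycle differed by little. Of 41 G1/S and DNA replication genes listed in both, 29 had a negative difference and 1 was called lower, with a median of −0.27. That gene was PRIM1, the catalytic subunit of primase, at 16.7 FPKM with NaB, Cur and Pip and 50.3 FPKM with Cur and Pip (−1.54), and MCM6, a subunit of the replicative helicase, stood at 16.6 and 45.7 FPKM (−1.41). CDC25A, a phosphatase that opens S phase, stood higher, at 26.4 and 12.1 FPKM (1.06). The median of 40 G2/M genes was 0.01, with 0 called higher and 1 lower, UBE2C, a ubiquitin-conjugating enzyme of mitotic exit, at 8.96 and 69.4 FPKM (−2.82, or −1.32 on the apportioned scale). Ribosome biogenesis genes, by contrast, had a median of 0.31 with 27 of 34 positive and none called. NOP56, a core protein of box C/D snoRNPs, stood at 159 and 78.9 FPKM (1.002), and RRN3, which recruits RNA polymerase I, at 36.4 and 19.6 FPKM (0.86). Of 61 cytosolic ribosomal protein genes, 5 were called in each direction, and their many pseudogenes make these values uncertain.

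Boron and metal handling genes were few. SLC4A11, once described as a borate transporter, stood at 2.85 FPKM with NaB, Cur and Pip and 3.06 FPKM with Cur and Pip (log2 difference −0.08), and AQP3, an aquaporin that carries small uncharged solutes, at 54.7 and 85.3 FPKM (−0.63). MT1E and MT1X, metallothioneins that bind zinc and copper, stood at 50.4 and 22.5 FPKM (1.13) and at 38.2 and 20.9 FPKM (0.84), and metallothionein genes are near-identical to each other. None of the 4 aquaporin and borate genes or of the 5 metallothionein and zinc transporter genes listed in both was called.

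Some surface and epithelial genes were also called. OLR1, the LOX-1 receptor of oxidized lipoproteins, stood at 60.1 FPKM with NaB, Cur and Pip and 6.51 FPKM with Cur and Pip (log2 difference 3.02, interval 2.84 to 3.22). KRT17, a keratin of stressed and basal epithelium, stood at 695 and 176 FPKM (1.97), and keratin 17 has pseudogenes that may share reads. LAMB3, a chain of epithelial laminin, was called lower at 15.2 and 46.0 FPKM (−1.54), and ALPI, intestinal alkaline phosphatase, at 26.3 and 90.3 FPKM (−1.74). KRT17 and ALPI are also on lists of cell type markers, and no other marker listed in both libraries was called. Of 12 squamous or basal epithelium markers, 6 stood at an FPKM of at least 1 with NaB, Cur and Pip and 4 with Cur and Pip, with sums of 743 and 214 FPKM that came mostly from KRT17. Of the defining markers, TP63 stood at 0.53 and 1.70 FPKM, and KRT14 and S100A2 stood at 3.81 and 10.07 FPKM with NaB, Cur and Pip and were listed at 0 with Cur and Pip. Of 14 colon epithelium markers, 3 reached 1 FPKM in each library, with sums of 29.3 and 93.1 FPKM that came mostly from ALPI, while VIL1 and CDH17 were listed at 0. The part of such cells in the results was not tested.

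Libraries that the comparison did not use show how far the same genes differed with NaB alone. NaB was set against control under the same label, where 190 (1.74%) of 10889 genes listed in both were called higher and 454 (4.17%) lower. Over 10403 genes listed in all 4 libraries, the log2 differences of the 2 comparisons correlated with r = 0.365 (rho 0.444), a description across genes that share their annotation and length and are not replicates. Of the genes called in the first comparison, 70 were called in the same direction in the second (21 higher, 49 lower), which is 22.9% of the 306 called in the first and 12.01% of the 583 called in the second, and 16 were called in opposite directions. Of the covered genes that met all criteria and were listed in all 4, 17 of 18 higher ones were also higher with NaB than in the control, and 31 of 33 lower ones were also lower, while 39.95% of all 10403 genes were higher there. Without the coverage limit the counts were 28 of 33 and 57 of 73.

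OLR1 stood at 61.3 FPKM with NaB and 10.04 FPKM in the control (log2 difference 2.50), ANKRD1 at 8.001 and 0.88 FPKM (2.26), IL6 at 22.2 and 0.94 FPKM (3.58), and KRT17 at 1240 and 288 FPKM (2.10). PHGDH stood at 15 FPKM with NaB and 81.2 FPKM in the control (−2.36), DDIT4 at 61.4 and 227 FPKM (−1.87), AKR1C1 at 101 and 496 FPKM (−2.28), and ALPI at 15.2 and 486 FPKM (−4.91). These 8 genes, named with the values of both comparisons known, had the same sign with NaB whether Cur and Pip were present or not. Their likeness is therefore a description, and AKR1C1 and ALPI are not among the covered genes. The 3 exceptions among the covered genes were SDHD, EEF1B2 and the pseudogene PPIAP46, chosen here after their values were seen. SDHD, a subunit of respiratory complex II, stood at 87.1 FPKM with NaB, Cur and Pip and 0.68 FPKM with Cur and Pip (5.71, or 1.604 on the apportioned scale), but at 63.9 FPKM with NaB and 80.8 FPKM in the control (−0.33). EEF1B2, a translation elongation factor subunit, had −4.48 in the first comparison (−2.10 on the apportioned scale) and 0.56 in the second. CALM2, a calmodulin gene, stood at 40.7 FPKM with NaB, Cur and Pip and 403 FPKM with Cur and Pip (−3.28), but at 399 FPKM with NaB and 452 FPKM in the control (−0.18). GDF15 went the other way, at 266 FPKM with NaB and 130.2 FPKM in the control (1.03), and so did ATF3, at 16.2 and 40.3 FPKM (−1.26). With 1 library per condition these differences between the comparisons were not tested.

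**Figure D3:**
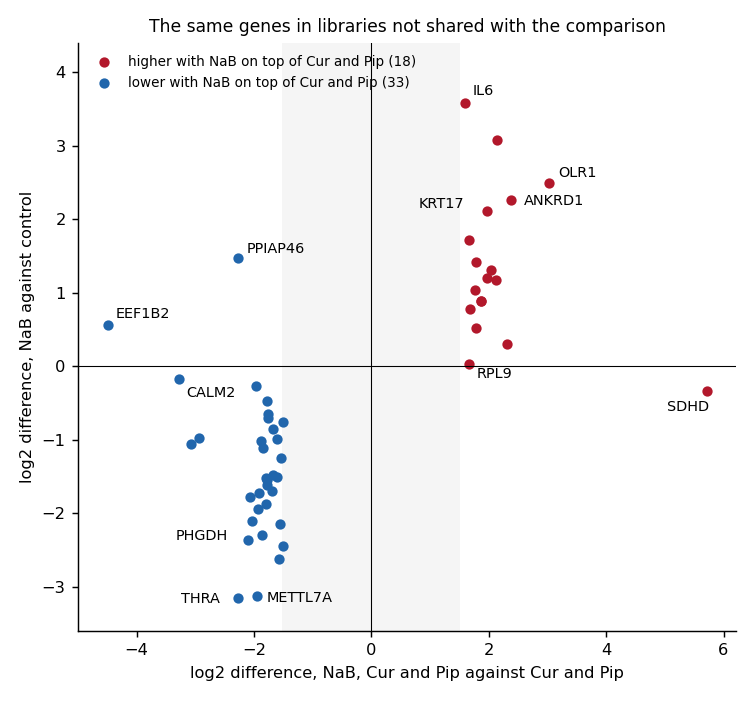
Log2 difference of NaB against control (vertical axis) against the log2 difference of NaB, Cur and Pip against Cur and Pip (horizontal axis) for the 51 covered genes that met all criteria and were listed in all 4 libraries labelled Hep3B. Each point is 1 gene, and the grey band lies between −1.5 and 1.5, where no gene could be chosen. Of the 18 red points 17 lie above 0, and of the 33 blue points 31 lie below it.

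The gene lists showed the same order in part, though with NaB alone the NRF2 list lay near the median of all genes, −0.17. With NaB alone, the median was −0.50 over 28 ATF4 and CHOP target genes, −0.40 over 20 aminoacyl-tRNA synthetases and −0.24 over 30 NRF2 target genes, and it was 0.60 over 28 AP-1 and immediate early genes, 0.50 over 21 SMAD and TGF-beta genes, 0.81 over 18 NF-kB targets and 0.65 over 35 ribosome biogenesis genes. The endoplasmic reticulum list had a median of −0.14 with NaB alone, beside 0.27 when NaB was added to Cur and Pip. Whether the lists differ between the 2 settings was not tested.

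**Figure D4:**
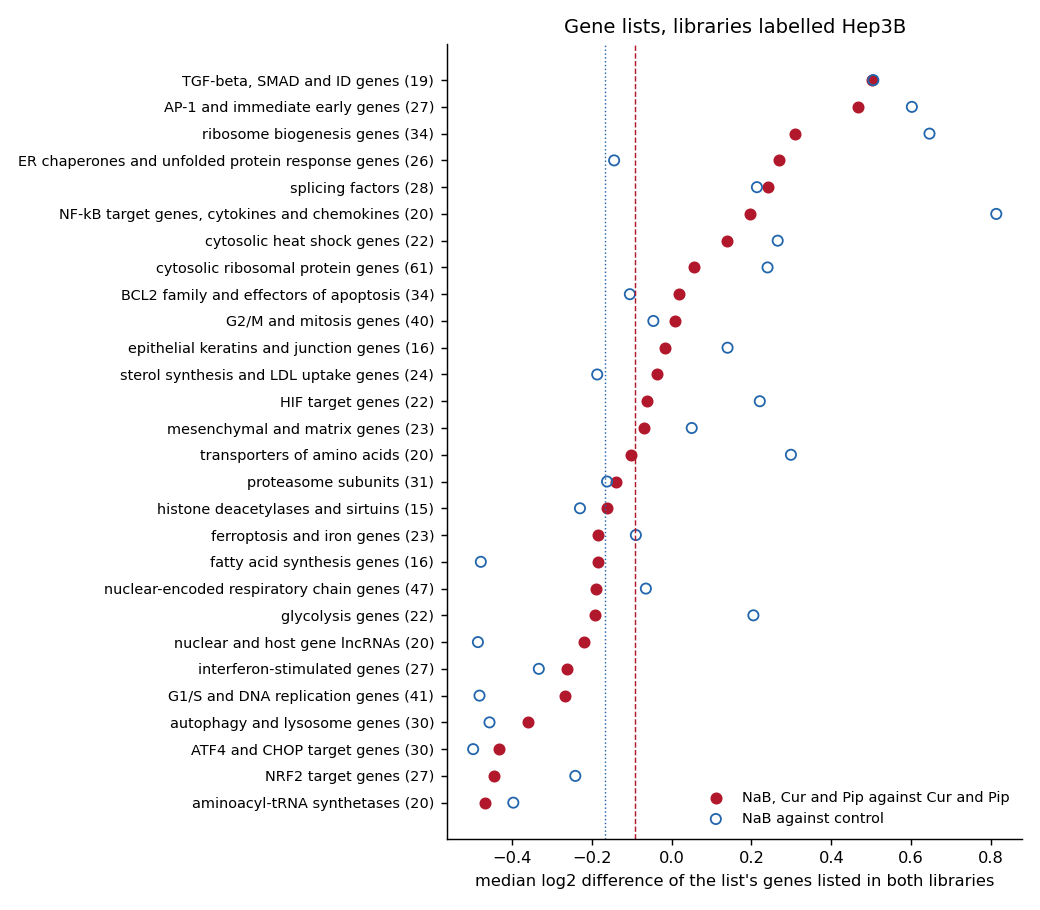
Median log2 difference of 28 gene lists with at least 10 genes listed in both libraries (number in brackets), for NaB, Cur and Pip against Cur and Pip (filled red) and for NaB against control (open blue). The dashed red and dotted blue lines mark the medians of all genes in each comparison, −0.09 and −0.17. AP-1, SMAD and TGF-beta, and ribosome biogenesis lists lie to the right in both comparisons. ATF4 and CHOP, NRF2 and aminoacyl-tRNA synthetase lists lie to the left in both, the NRF2 list only slightly with NaB alone (−0.24).

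In HepG2 the same addition, at another NaB dose, gave a weaker likeness gene by gene. There 215 (1.98%) of 10836 genes listed in both were called higher and 288 (2.66%) lower, and over 9322 genes listed in all 4 libraries the differences correlated with r = 0.135 (rho 0.184). Of the covered genes that met all criteria under the Hep3B label, 7 of 16 higher ones and 17 of 24 lower ones had the same sign in HepG2, where 51.5% of the genes were higher. PHGDH stood at 12.9 FPKM with NaB, Cur and Pip and 40.8 FPKM with Cur and Pip in HepG2 (−1.59), and NUPR1 at 11.9 and 60.9 FPKM (−2.26). HSPA6 stood at 224 and 272 FPKM there (−0.28), and DUSP5 at 86.0 and 119 FPKM (−0.47). IL6 and OLR1 were listed at 0 in both HepG2 libraries. In HepG2 the median was −0.86 over 30 ATF4 and CHOP target genes, with 8 called lower and 1 higher. It was −0.66 over 18 aminoacyl-tRNA synthetases with 0 called, and −0.45 over 26 NRF2 target genes with 4 called lower. It was 0.33 over 17 SMAD and TGF-beta genes and 0.18 over 15 NF-kB targets. For 29 AP-1 and 32 ribosome biogenesis genes it was 0.09 and 0.06. Over all genes listed in both HepG2 libraries it was 0.02.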

How the data were processed

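RNA-seq libraries of the NEBNext Ultra II Directional kit were read in pairs of 150 nt. According to the methods and the submitters' processing notes, the authors used STAR for mapping to GRCh38 and Cufflinks for assembling each library on its own. FastQC and Cuffdiff are named too. Tool versions were not found in these sources. The deposited tables give each assembled transcript an FPKM with a 95% interval and a coverage, without gene names. No counts were read, so no count test was run.

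Transcripts were given (bedtools 2.31.1) to the same-strand GENCODE 44 gene holding 50% or more of their exonic length, and FPKM was summed per gene, with intervals built from those of the transcripts. They describe how well 1 library was estimated, not how cultures vary. Sums move with what was assembled, so depth was also apportioned over the exons of the Ensembl canonical transcript. The difference is that of log2(FPKM + 1), with a threshold of 1.5 as in the methods. Genes named are genes of the study's qRT-PCR and of the label check; the 12 highest and 12 lowest protein-coding genes and 3 lncRNAs per direction by the criteria given above; up to 3 per direction of each list; and up to 5 per direction shared with, or opposite to, NaB alone or HepG2. Others are said to be chosen afterwards, and members that a list's account needs were named with their values. The members and the 33 gene lists and 11 marker lists were chosen with earlier results of these data known. Mitochondrially encoded genes gave no value, and some genes and 1 list are not reported here.

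On simulated libraries with counting error only, 38 of 50 genes raised and 39 of 50 lowered by 2 on the log2 scale passed the threshold, as did 0 of 11157 unchanged genes, among 11357. Alternatives were other pseudocounts, filters, scalings, thresholds and transcript sums. Python 3.11.15 with numpy 2.4.6, pandas 2.3.3 and matplotlib 3.10.9 was used.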

Additional observations from a re-analysis of the deposited data

Results flagged for a closer look

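The genes here met the strict criteria when NaB was added to Cur and Pip under the Hep3B label and were called in the opposite direction in another comparison of NaB. Each condition has 1 library, so the difference between the comparisons was not tested. All but RPS29, RPL37A and SNRPE are annotated as processed pseudogenes, and as near-identical copies of abundant genes their values are uncertain.

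With NaB alone against control, RPL37A, a ribosomal protein gene, had a log2 difference of 4.35, beside −1.88 when NaB was added to Cur and Pip. On the apportioned scale RPL37A had 0.62 beside −2.24, so the call with NaB alone did not hold there. Its exon bases were 9.3% covered with NaB, Cur and Pip and 12.2% with Cur and Pip, so its values are uncertain too. Copies of NPM1 and GAPDH also had opposite signs: NPM1P46 had 6.12 beside −4.42, GAPDHP65 had 5.66 beside −4.89, and GAPDHP63 had 3.26 beside −2.14. The processed pseudogene ENSG00000230291 had 4.91 beside −1.62.

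In HepG2, with NaB, Cur and Pip against Cur and Pip, RPS29, a ribosomal protein gene, had a log2 difference of −6.36, beside 7.52 under the Hep3B label. On the apportioned scale RPS29 had −2.60 beside 3.003. NPM1P46 had 5.802 beside −4.42, ENSG00000230291 had 3.44 beside −1.62, SNRPE, a spliceosome subunit, had 2.75 beside −4.42, and RPL35P5 had −2.70 beside 2.39. SNRPE had 1.705 beside −3.78 on the apportioned scale, with 20.6% and 28.2% of its exon bases covered under the Hep3B label.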

How the results depend on the processing

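The numbers of called genes moved with the pseudocount and the threshold, as their construction makes them. Of genes listed in both libraries, a pseudocount of 0.1 called 254 higher and 468 lower and a pseudocount of 5 called 84 and 122; over all genes the pseudocount of 5 called 265 and 405. A threshold of 1 called 1024 higher and 1679 lower over all genes and 476 and 833 of those listed in both, and a threshold of 2 called 71 and 113 of those listed in both. With protein-coding genes only, 339 were higher over all genes and 109 among those listed in both. Asking for 80% of exon bases covered in both libraries, a limit chosen after seeing the data, left 56 higher and 88 lower. The other counts stayed within 1.5 times of those reported, and lower calls outnumbered higher ones under every setting tried. The correlations kept within 0.1 of the reported values. Of the 63 named genes past the threshold, 49 stayed past it with a pseudocount of 5, 57 with the largest transcript of each gene and 61 with median-of-ratios scaling, which moves all differences by 0.10. None of these 63 changed sign, but RB1 (−0.36), which was not past the threshold, stood at 0.27 apportioned. Over all settings, list medians ran from 0.34 to 0.56 for AP-1, 0.41 to 0.79 for SMAD and TGF-beta, 0.11 to 0.36 for NF-kB, 0.09 to 0.32 for heat shock, 0.25 to 0.36 for the endoplasmic reticulum, −0.47 to −0.09 for ATF4 and CHOP, −0.72 to −0.35 for NRF2 and −0.55 to −0.37 for aminoacyl-tRNA synthetase genes. No paired analysis was possible because each condition has 1 library. Genes listed at 0 may be unassembled rather than silent, and no spread between cultures is known.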

Other observations

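Most interferon-stimulated and lysosomal genes listed in both had a negative difference when NaB was added to Cur and Pip. So did most of all 11357 genes listed in both. Of those, 42.85% had a positive difference and 2.34% were called lower, with a median of −0.09. Of 27 interferon-stimulated genes listed in both, 18 had a negative difference and 1 was called lower, with a median of −0.26. That gene was IFI35, at 7.63 FPKM with NaB, Cur and Pip and 31.3 FPKM with Cur and Pip (log2 difference −1.91), against 4.23 FPKM with NaB and 16.3 FPKM in the control. LY6E, an interferon-induced surface protein chosen after its values were seen, stood at 40.0 and 139 FPKM (−1.77), against 52.96 FPKM with NaB and 157 FPKM in the control. IFIT2 and ISG20, also interferon-induced, stood at 40.5 and 22.4 FPKM (0.83) and at 13.6 and 5.72 FPKM (1.12). Of 30 autophagy and lysosome genes, 22 had a negative difference, 2 were called lower and the median was −0.36, with CTSD, the lysosomal protease cathepsin D, at 410 and 848 FPKM (−1.05). The 2 called were CTSB, another cathepsin, at 17.5 and 58.9 FPKM (−1.69) and LAMP1, a lysosomal membrane protein, at 202 and 584 FPKM (−1.53), which were −0.76 and −0.70 on the apportioned scale.

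Further genes were lower with NaB in both pairs of libraries and were chosen after their values were seen. METTL7A, a lipid droplet methyltransferase, stood at 2.63 FPKM with NaB, Cur and Pip and 12.98 FPKM with Cur and Pip (−1.94), against 2.30 FPKM with NaB and 27.9 FPKM in the control. HTRA1, a secreted protease, stood at 4.26 and 19.1 FPKM (−1.93), against 9.38 FPKM with NaB and 38.8 FPKM in the control. MBTPS1, the site-1 protease that activates SREBP and ATF6, stood at 11.2 and 43.2 FPKM (−1.86), against 10.5 FPKM with NaB and 55.3 FPKM in the control. THRA, a thyroid hormone receptor, stood at 4.41 and 25.0 FPKM (−2.26), against 5.19 FPKM with NaB and 54.1 FPKM in the control. Of 20 listed members of a set of known lncRNAs, 2 were called higher, SNHG5 (2.20) and EPB41L4A-AS1 (3.68), and 0 lower. The set had 8 positive and 12 negative differences, with a median of −0.22. On the apportioned scale 0 of its members were called higher and 1 lower, so neither of these 2 calls held there. By the criteria of the report, ENSG00000289609 stood at 53.6 and 8.21 FPKM (2.57), CTC-338M12.4 at 1.79 and 10.5 FPKM (−2.04) and ENSG00000290823 at 6.29 and 26.4 FPKM (−1.91). The lncRNA SERPINB9P1 stood at 2.39 and 10.7 FPKM (−1.78), against 3.51 FPKM with NaB and 12.8 FPKM in the control, and H19, an imprinted lncRNA, at 378 and 589 FPKM (−0.64), against 654 FPKM with NaB and 3602 FPKM in the control.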
